A study of Homo sapiens with 6 samples.

Results

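ADIRF-AS1, a long noncoding RNA gene of chromosome 10, and 5 genes that lie on it or near it (ADIRF, AGAP11, SNCG, BMPR1A and GLUD1) were followed in LoVo cells after knockdown of the splicing factor SRSF11. The 6 genes were taken by name from the 58735 genes of the count table. ADIRF-AS1 was chosen by its measured counts in this same comparison, where its p-value was the smallest of all tested genes, so its own change is given as a description without a test, and the other 5 were chosen for their position. LoVo is an established human colorectal adenocarcinoma cell line. The cells were transfected with a negative control siRNA (si-NC, 3 libraries) or with siRNA that targets SRSF11 (si-SRSF11, 3 libraries), and both groups had the same cell line and the same library kit. The siRNA used for sequencing was not named in the sources used here, the time after transfection was not given there either, and a single cell line stands for the disease. The study describes the RNA samples as independent and as pairs, but the labels do not say whether they came from separate cultures, so the p-values measure the spread between these libraries, which may be partly technical.

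Library totals ranged from 14369525 to 16685719 counts. SRSF11 itself had 1271, 1281 and 1363 counts in si-NC and 789, 789 and 807 in si-SRSF11, which is 86.3 ± 1.89 and 49.4 ± 0.950 counts per 1000000 counts of the library (CPM, scaled by TMM; SD, n = 3), so the libraries labelled si-SRSF11 held 57.2% of the control level. Summed markers of colorectal epithelium lay between 5976 and 6324 CPM in si-NC and between 6076 and 6455 CPM in si-SRSF11, and 8 of 10 were above 10 CPM in every library, with KRT20 and CEACAM5 as the exceptions at 20 counts or fewer. Of 21 markers of other cell types 5 were at 0 in every library (DCN of fibroblasts, ADIPOQ and LEP of adipocytes, PTPRC of leukocytes, SNAP25 of nerve) and 7 were tested. The fibroblast markers summed to 19.7 to 23.1 CPM in si-NC and 24.6 to 28.9 in si-SRSF11, the adipocyte markers to 3.55 to 4.87 and 5.83 to 6.18, the endothelial markers to 11.1 to 14.2 and 7.41 to 10.3, the leukocyte markers to 0.128 to 0.482 and 0.428 to 1.23, and the nerve markers to 4.23 to 6.24 and 2.88 to 5.28. Of the 7 tested, 2 were higher, PDGFRB (log2 fold change 0.70, adjusted p by edgeR 0.000234) and CIDEC (0.59, 0.0191), and 2 were lower, TUBB3 (-0.61, 0.0493) and MMRN2, and these 4 are named after their values were seen. Over all tested genes 24.6% had an adjusted p under 0.05 by edgeR, 13.2% higher and 11.4% lower. The calls of CIDEC and TUBB3 were lost without several single libraries, with adjusted p by edgeR of up to 0.0877 and 0.188, and that of TUBB3 also with DESeq2 (adjusted p = 0.0713). The part of such cells in the results was not tested.

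In the comparison of si-SRSF11 with si-NC, 3885 of 15801 tested genes (24.6%) had an adjusted p under 0.05 by edgeR's quasi-likelihood test, 2081 of them higher (13.2%) and 1804 lower (11.4%). Higher genes made up 53.6% of these, and 41.0% when the counts were scaled by library size alone. A log2 fold change is always si-SRSF11 against si-NC.

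Antisense transcripts are RNAs read from the strand opposite to another gene. They can share a promoter region or exonic bases with their partner, and many stay in the nucleus, where they can act on chromatin or on neighbouring genes. SRSF11 is a serine- and arginine-rich protein that takes part in pre-mRNA splicing, and long noncoding RNAs are spliced by the same machinery as mRNAs. ADIRF-AS1 has been described in other human cell lines as a transcript under control of the circadian clock that associates with PBAF, a chromatin remodelling complex. ADIRF is a small adipogenesis regulatory factor, AGAP11 belongs to a family of GTPase-activating proteins for ARF GTPases with many pseudogene copies, SNCG is gamma-synuclein, BMPR1A is a type I receptor for bone morphogenetic proteins (BMPs), and GLUD1 is the mitochondrial glutamate dehydrogenase.

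On GRCh38, ADIRF-AS1 (ENSG00000272734) lies on the minus strand at chr10:86965345-86971311, with 4 annotated transcripts that cover 5748 exonic bases in GENCODE 29. ADIRF (ENSG00000148671) runs over it on the plus strand at chr10:86968192-86983934, and AGAP11 (ENSG00000271880) starts within it on the plus strand at chr10:86970741-87010126. SNCG (ENSG00000173267, plus strand, chr10:86958618-86963260) ends 2.085 kb away, BMPR1A (ENSG00000107779, plus strand, chr10:86756601-86932838) ends 32.5 kb away, and GLUD1 (ENSG00000148672, minus strand, chr10:87050486-87094866) lies 79.2 kb away on the other side. ADIRF and ADIRF-AS1 read the same bases from opposite strands, and the start of the ADIRF coding sequence shows this. The stretch chr10:86968545-86968574 is given as ADIRF reads it on the plus strand and as ADIRF-AS1 reads it on the minus strand, with the ADIRF start codon and its complement in capitals:
ADIRF: ATGgcaagcaagggcttgcaggacctgaag
ADIRF-AS1: cttcaggtcctgcaagcccttgcttgcCAT

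The promoter of ADIRF-AS1 is shown because this gene stood first by p-value in the comparison. In RefSeq (GRCh38.p14), the 250 bases before and 50 bases after its annotated start occupy chr10:86971191-86971490 on the minus strand and are 73.3% G and C, against a median of 58.7% over 35116 promoters. Both strands were searched for the E-box CACGTG, which the circadian activators bind, the AP-1 site TGACTCA, the GC box GGGCGG, the TATA box TATAAA and CCAAT. The E-boxes and the AP-1 site are in capitals and do not overlap each other:
ADIRF-AS1 promoter: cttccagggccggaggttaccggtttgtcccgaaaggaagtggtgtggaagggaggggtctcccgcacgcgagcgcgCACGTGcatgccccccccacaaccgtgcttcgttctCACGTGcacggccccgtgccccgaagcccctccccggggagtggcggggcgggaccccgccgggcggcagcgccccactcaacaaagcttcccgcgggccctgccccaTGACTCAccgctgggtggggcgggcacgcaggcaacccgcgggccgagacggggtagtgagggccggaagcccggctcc
E-boxes began at positions -173 and -137 from the RefSeq start, the AP-1 site began at -29, and the GC box occurred 3 times. The GENCODE start of the gene, at chr10:86971311, lies upstream of this RefSeq start. By GENCODE the AP-1 site, within chr10:86971252-86971281, therefore falls inside an ADIRF-AS1 exon, and the E-boxes fall outside the gene. At least 1 E-box was found in 7.26% of all promoters, at least 2 in 0.664% and an AP-1 site in 4.95%. No E-box and no AP-1 site was found in the matched promoters of ADIRF, AGAP11, SNCG, BMPR1A or GLUD1. These letter matches are descriptions of the sequence only. Of the 141 other tested genes with at least 2 E-boxes in a promoter, 20 were higher and 10 lower in si-SRSF11 (21.3%, against 24.6% of all tested genes), with a median log2 fold change of 0.03.

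ADIRF-AS1 was abundant in control cells and fell in all 3 si-SRSF11 libraries. It had 1108, 1164 and 1173 counts in si-NC and 322, 312 and 347 in si-SRSF11, or 76.3, 76.4 and 75.2 CPM against 20.6, 19.2 and 21.2 CPM. The groups lay far apart, with the libraries within each close together. The mean went from 76.0 ± 0.694 to 20.3 ± 1.06 CPM (SD, n = 3). The log2 fold change was -1.90 (SE 0.065), so that 26.8% of the control level was left. This SE takes no account of the choice of the gene by its p-value. The fall was 3.74-fold, and in bulk RNA fewer cells with the transcript and less of it per cell cannot be told apart. SRSF11 itself had a log2 fold change of -0.80.

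By p-value ADIRF-AS1 ranked 1 of 15801 genes, ahead of ARRDC4, an arrestin-domain protein, with a log2 fold change of -1.04, and VGF, a secreted neuropeptide precursor, with -0.91. By log2 fold change it ranked 6. This rank was 2 without si-NC replicate 1, 3 without si-NC replicate 2 or 3, 10 without si-SRSF11 replicate 1, 13 without si-SRSF11 replicate 2, 7 without si-SRSF11 replicate 3, and 2940 when genes of any count were kept. The 5 genes with a lower log2 fold change (AC108134.4, AC233968.1, GAPDHP22, AC125611.4 and AP003096.1) had mean levels of 0.817 to 2.09 CPM in si-NC, at most 46 counts in a library, and standard errors of 0.353 to 0.525. The 2 that stood next to it were AC125611.4 with a log2 fold change of -1.96 and AP003096.1 with -1.94. Leaving out any 1 library moved its log2 fold change no further than from -1.94 to -1.86. Over all tested genes 173 (1.09%) passed the adjusted p with a log2 fold change over 1 in size, 87 of them lower (0.551%). ADIRF-AS1 is in this count by its choice, and nothing is read from that.

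In control cells ADIRF-AS1 ranked 22 from the top of 1801 tested antisense, lincRNA and processed-transcript genes by CPM, and 72 in si-SRSF11. Per kb of exon the ranks were 57 and 243. Among all 15801 tested genes its rank by CPM went from 2946 to 8052. Of the 1801 genes of these noncoding classes, 12.3% were called, against 24.6% of all tested genes. By the adjusted p 38 of the 1801 were higher and 183 lower. Over all 15801 tested genes 2081 were higher (13.2%) and 1804 lower (11.4%). The median log2 fold change of the noncoding classes was -0.16, against 0.0015 over all tested genes.

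The counts of ADIRF-AS1 rest on the part of its exons that no other gene shares. Of its 5748 exonic bases 27.3% are shared, namely 917 with ADIRF, 465 with AL136982.7, 440 with MMRN2 and 175 with AGAP11. Of the 4178 unshared bases, 1550 (37.1%) lie inside an intron of ADIRF and 2628 lie outside the span of ADIRF. The library kit did not mark the strand, so reads from unspliced ADIRF RNA and from ADIRF-AS1 could not be told apart over those 1550 bases. A block of 2205 unshared bases, at chr10:86965345-86967549, lies between annotated exons of MMRN2, which is on the same strand. Reads from unspliced MMRN2 RNA could not be told apart from those of ADIRF-AS1 there. The part of either in the ADIRF-AS1 counts was not tested.

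ADIRF was listed at 0 counts in all 6 libraries and was not tested. All of its 998 exonic bases are shared with another gene, 917 of them (91.9%) with ADIRF-AS1, 256 with AGAP11 and 252 with AL136982.7. Most genes with every exonic base shared were listed at 0 in the table. Of 761 genes whose every exonic base is shared with a gene of the opposite strand, 759 (99.7%) had 0 counts in all 6 libraries. ADIRF is not among these 761, since its last exon is shared only with AGAP11, on its own strand. Of the 1894 genes with every exonic base shared on either strand, 1820 (96.1%) were at 0, and the highest count of any of them was 21. Among protein-coding genes 79.2% of the 312 fully shared ones were at 0 in all libraries, against 16.6% of all 19951. The 0 of ADIRF is therefore no measure of its RNA in these cells. AL136982.7, an antisense gene with every base shared, was likewise listed at 0.

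Other genes of fat cell formation were measured in part. Of 14 genes on an adipogenic list 7 were tested, and 2 of the 7 passed the test (28.6%, near the 24.6% of all tested genes; median log2 fold change -0.06). SREBF1, the activator of fatty acid synthesis genes, rose by a log2 fold change of 0.27 (SE 0.048, adjusted p by edgeR 0.000241), and CEBPB, an early adipogenic transcription factor, fell by 0.29 (SE 0.057, adjusted p by edgeR 0.000753). The fat cell products FABP4, LPL, ADIPOQ, CD36 and LEP had 0 counts in all 6 libraries, and PLIN1 had at most 15.

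AGAP11 had few counts, with 96.3% of its exonic bases shared with other genes, and did not pass the test. It had 29, 24 and 29 counts in si-NC and 31, 7 and 9 in si-SRSF11, or 2.00, 1.58 and 1.86 CPM against 1.98, 0.430 and 0.551 CPM. Replicate 1 of si-SRSF11 stood at the control level and the other two below it, so the groups overlapped. The log2 fold change was -0.88 (SE 0.41, 95% interval -1.72 to -0.04, adjusted p by edgeR 0.119; exact two-sided permutation p = 0.30, n = 3 per group, where 0.10 is the smallest p possible). Without si-SRSF11 replicate 1 it was -1.87 with an adjusted p of 0.00173 by edgeR.

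Counting error is wide at this depth. The 95% Poisson intervals, which cover counting error only, ran from 21.1 to 44.0 for the 31 counts, from 2.81 to 14.4 for the 7 and from 4.12 to 17.1 for the 9. The neighbouring AL136982.6, which shares 649 exonic bases with AGAP11, had 10, 7 and 9 counts in si-NC and 13, 0 and 0 in si-SRSF11. The same library was the high one for both genes, while AL136982.1, which shares 2555 bases with AGAP11, had 9, 12 and 7 counts in si-NC and 8, 10 and 11 in si-SRSF11.

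Only 114 of the 3078 exonic bases of AGAP11 belong to it alone, 101 of them in its second exon at chr10:86983140-86983240. Sequence is shared as well as position, since 90.1% of the 100-base windows of its transcript also occur in transcripts of other genes. Of 13 AGAP family genes 9 were tested and 0 were called by edgeR, where 24.6% of all tested genes were. Of the 9, 2 had an unadjusted p under 0.05 and 0 were called by DESeq2. The log2 fold changes of the tested paralogs lay between -0.12 (AGAP3) and 0.16 (AGAP6). AGAP11 was called lower in si-SRSF11 without si-SRSF11 replicate 1, and AGAP3 was called lower without si-SRSF11 replicate 3. The values of AGAP11 and of its copies are uncertain because of the shared sequence.

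MMRN2 (ENSG00000173269), a gene of the vessel wall matrix protein multimerin 2, shares 440 exonic bases with ADIRF-AS1 on the same strand. It had 184, 134 and 151 counts in si-NC and 113, 134 and 108 in si-SRSF11. After scaling the groups did not overlap, with 10.4 ± 2.03 against 7.35 ± 0.818 CPM (SD, n = 3), and the gene was lower by a log2 fold change of -0.49 (SE 0.14, adjusted p by edgeR 0.0151). The call was lost without si-NC replicate 1 (adjusted p by edgeR 0.147) and without si-SRSF11 replicate 3 (0.0524). Of its 5334 exonic bases 4894 are shared with no gene. MMRN2 was also the most abundant of the 4 endothelial markers, of which CDH5 had at most 2 counts, and the sum of the 4 was 11.1 to 14.2 CPM in si-NC and 7.41 to 10.3 CPM in si-SRSF11; the part of ADIRF-AS1 reads in the MMRN2 count was not tested.

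Of the 4 neighbours that could be tested, 1 passed (BMPR1A), where 24.6% of all tested genes did. SNCG, the nearest neighbour with no shared exonic base, had 816, 869 and 867 counts in si-NC and 819, 893 and 1092 in si-SRSF11, or 56.2, 57.1 and 55.6 CPM against 52.3, 54.8 and 66.8 CPM. Replicate 3 of si-SRSF11 was above the control libraries and the other two were below. The means were 56.3 ± 0.763 and 57.99 ± 7.78 CPM (SD, n = 3), and the log2 fold change of 0.04 (SE 0.073, adjusted p by edgeR 0.707; exact permutation p = 1, n = 3 per group) had a 95% interval of -0.11 to 0.20. Without si-SRSF11 replicate 3 the value was -0.075.

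SNCB, the gene of beta-synuclein, had at most 6 counts in a library and was not tested. Of the 2 tested genes of a synuclein list, SNCG among them, 0 were called by edgeR, 0 had an unadjusted p under 0.05 and 0 were called by DESeq2. Over all tested genes edgeR called 24.6%.

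BMPR1A was slightly higher after SRSF11 knockdown. It had 499, 566 and 590 counts in si-NC and 677, 686 and 668 in si-SRSF11, or 34.3, 37.2 and 37.8 CPM against 43.2, 42.1 and 40.9 CPM. All 3 knockdown libraries were above all 3 controls, as was the case in one direction or the other for 38.8% of tested genes. The means were 36.4 ± 1.84 and 42.1 ± 1.16 CPM (SD, n = 3), a log2 fold change of 0.21 (SE 0.066, 95% interval 0.07 to 0.34, adjusted p by edgeR 0.0253; exact permutation p = 0.10, n = 3 per group, the smallest p possible). The call was lost with DESeq2 (adjusted p = 0.0662), with scaling by library size (0.0652 by edgeR), without a filter (0.0520), and without replicate 1 or 2 of either group (0.0505 to 0.140).

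BMP signals pass from ligands through type I and type II receptors to SMAD1, SMAD5 and SMAD9, which enter the nucleus with SMAD4 and induce the ID genes. Of 35 genes of the pathway 24 were tested, and 6 were higher and 1 lower (29.2% called, median log2 fold change 0.12, against 24.6% and 0.0015 over all tested genes). Among ligands, BMP4 had 1818, 1869 and 1845 counts in si-NC and 2695, 2916 and 2997 in si-SRSF11, and it rose by a log2 fold change of 0.55 (SE 0.048, adjusted p by edgeR 2.96e-08). BMP4 was high in every knockdown library. Among inhibitors, the intracellular SMAD7 rose by 0.27 (SE 0.061, adjusted p by edgeR 0.00241) and CHRD, the secreted antagonist chordin, had a log2 fold change of -0.48 (SE 0.12, adjusted p by edgeR 0.00678).

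ID3, a target, had 608, 577 and 621 counts in si-NC and 923, 947 and 1084 in si-SRSF11. The groups were apart, and ID3 rose by a log2 fold change of 0.62 (SE 0.066, adjusted p by edgeR 4.94e-07). Of the 5 tested targets 2 were higher and 0 lower (40%, where 24.6% of all tested genes were called). Only 3 of the 5 had a positive log2 fold change. Its paralog ID2, a target with more counts, did not pass (-0.05, SE 0.052, adjusted p by edgeR 0.569). BMPR1A was the only one of 7 tested receptors that passed the test (14.3%, where 24.6% of all tested genes passed). Of the 4 transducers 0 were called by edgeR, 0 had an unadjusted p under 0.05 and 0 were called by DESeq2.

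GLUD1, the most abundant of the 6 genes, did not pass the test. It had 2578, 2788 and 2894 counts in si-NC and 2707, 2851 and 2954 in si-SRSF11, or 177, 183 and 185 CPM against 173, 175 and 181 CPM. The groups overlapped. The means were 182 ± 4.11 and 176 ± 4.15 CPM (SD, n = 3). The log2 fold change was -0.05 (SE 0.047, 95% interval -0.14 to 0.05, adjusted p by edgeR 0.511; exact permutation p = 0.20, n = 3 per group). Of its 3519 exonic bases 13.2% are shared with SHLD2, and 23.7% of its 100-base windows occur in other genes, 13.6% in GLUD2. GLUD2, the intronless copy on chromosome X, stood at 1.05 ± 0.456 and 0.726 ± 0.204 CPM (SD, n = 3; not called), and GLUD1P3, a pseudogene copy, had a log2 fold change of 0.09 (SE 0.29).

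Glutamate is made from glutamine and is turned into 2-oxoglutarate by GLUD1 or by transaminases. Other genes of these steps changed in both directions. Of 22 genes 20 were tested, and 8 were higher and 4 lower, with a median log2 fold change of 0.07. This is 60% called, against 24.6% of all tested genes and 27.4% of the tested protein-coding ones. The list was chosen with earlier results of these data known, so nothing is read from its share. GOT1, the cytosolic aspartate transaminase, had 2688, 2718 and 2766 counts in si-NC and 1872, 1979 and 2070 in si-SRSF11. It was low in every knockdown library, with a log2 fold change of -0.56 (SE 0.047, adjusted p by edgeR 1.96e-08). OGDH, the 2-oxoglutarate dehydrogenase of the citric acid cycle, rose by 0.37 (SE 0.047, adjusted p by edgeR 3.95e-06) and SLC25A13, the mitochondrial aspartate and glutamate carrier, by 0.41 (SE 0.066).

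Levels of different genes were compared per kb of exon. In si-NC the order was GLUD1 at 51.7, SNCG at 45.1, ADIRF-AS1 at 13.2 ± 0.121, BMPR1A at 3.19, MMRN2 at 1.95 and AGAP11 at 0.588 CPM per kb, and no neighbours in this order overlapped. In si-SRSF11 the order was GLUD1 at 50.1 ± 1.18, SNCG at 46.5 ± 6.24, BMPR1A at 3.69 ± 0.102, ADIRF-AS1 at 3.53 ± 0.184, MMRN2 at 1.38 and AGAP11 at 0.320 CPM per kb (SD, n = 3). Here GLUD1 and SNCG did not differ beyond their spread, nor did BMPR1A and ADIRF-AS1. Reads on shared bases were rarely counted. Over unshared exon alone ADIRF-AS1 stood at 18.2 CPM per kb in si-NC and 4.86 in si-SRSF11, so that its place beside BMPR1A in si-SRSF11 depends on the length used. AGAP11, over its 114 unshared bases, stood at 15.9 CPM per kb in si-NC and 8.65 in si-SRSF11. Its last place in both orders therefore depends on the length used as well.

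Ratios within a library do not depend on scaling. ADIRF-AS1 had 1.36, 1.34 and 1.35 counts for each SNCG count in si-NC and 0.393, 0.349 and 0.318 in si-SRSF11. For each BMPR1A count it had 2.22, 2.06 and 1.99 in si-NC and 0.476, 0.455 and 0.519 in si-SRSF11. For each GLUD1 count it had 0.430, 0.418 and 0.405 in si-NC and 0.119, 0.109 and 0.117 in si-SRSF11. The groups were far apart in these 3 ratios. This follows from the choice of ADIRF-AS1 by its change in the same comparison, so nothing is read from it. For each AGAP11 count it had 38.2, 48.5 and 40.4 in si-NC and 10.4, 44.6 and 38.6 in si-SRSF11, and here the groups overlapped. The share of ADIRF-AS1 in the counts of the 6 genes and MMRN2 together was 20.6% to 21.3% in si-NC and 6.39% to 6.90% in si-SRSF11. It is likewise a description only.

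The other genes around ADIRF-AS1 were called about as often as genes elsewhere. Within 1000 kb on either side the table lists 54 other genes, of which 14 were at 0 in all libraries and 21 were tested. Of these 21, 4 were higher and 2 lower (28.6% called, against 24.6% of all tested genes and 23.0% of the 617 tested on chromosome 10), with a median log2 fold change of 0.04 and a range of -0.88 (AGAP11) to 0.55. The 2 lower genes are 9.52% of those tested in the window, against 11.4% of all tested genes. PAPSS2, which makes the sulfate donor of the cell, rose by a log2 fold change of 0.43 (adjusted p by edgeR 0.00139). SHLD2, a shieldin subunit of DNA repair whose exons overlap those of GLUD1, had 360, 353 and 358 counts in si-NC and 434, 470 and 503 in si-SRSF11 and rose by 0.30 (adjusted p by edgeR 0.00706). The lower genes were MMRN2, with its overlap, and the cofilin pseudogene CFL1P1 with a log2 fold change of -0.74 (SE 0.26, adjusted p by edgeR 0.0410). The call of CFL1P1 was lost with DESeq2 (adjusted p = 0.0753), without any 1 of the si-NC replicates (0.0549 to 0.142 by edgeR) and without si-SRSF11 replicate 2 (0.194). Without si-NC replicate 1, 3 of the genes in this window were called, all of them higher, and without si-SRSF11 replicate 1, 7 were called, 4 of them lower.

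The subunits of PBAF, the complex that ADIRF-AS1 is known to associate with, were present. All 16 were tested, and 7 were higher and 1 lower (50% called, median log2 fold change 0.12, where over all tested genes 24.6% were called and the median was 0.0015). Of the tested protein-coding genes 27.4% were called. This list too was chosen with earlier results of these data known, so nothing is read from its share. SMARCD1 rose by 0.25 (SE 0.048, adjusted p by edgeR 0.000571), SMARCC1 by 0.27 (SE 0.053, adjusted p by edgeR 0.000725), BCL7A by 0.28 (SE 0.064) and ACTL6A by 0.26 (SE 0.060), and each of these is also part of related remodelling complexes. These 4 were called under every alternative setting and with each library left out, while the other calls had adjusted p-values of 0.0270 to 0.0494 and 0 to 5 more genes were called under the alternatives. The list had 5 calls without si-NC replicate 1 and 4 without si-NC replicate 2, si-NC replicate 3 or si-SRSF11 replicate 2. Of the 4 subunits particular to PBAF, 1 was called (25%, near the 24.6% of all tested genes). That call was lost with DESeq2, with each other scaling, without a filter, among protein-coding genes and members, and with the replicate block. When 1 library was left out, it was kept only without si-SRSF11 replicate 1.

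The genes whose pattern over the 6 libraries was most like that of ADIRF-AS1 were found by the root mean square difference of log2 CPM after each gene was centred on its own mean. They were GAPDHP22 (difference 0.263), AP000692.2 (0.275), AC108134.4 (0.293), AC034213.1 (0.312) and GABARAP (0.332). Their log2 fold changes were -2.00, -1.49, -2.36, -1.41 and -1.38. GABARAP, an autophagy protein of the ATG8 family, had 77, 83 and 90 counts in si-NC and 31, 25 and 46 in si-SRSF11, and 55.7% of its exonic bases are shared with other genes, so that its count covers less than its whole transcript. The other 4 are a pseudogene and noncoding genes with mean levels in si-NC of 0.996 to 5.08 CPM, well under the 76.0 CPM of ADIRF-AS1.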

How the data were processed

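Poly-A-selected RNA of LoVo cells was sequenced as 150 bp paired-end reads, with 3 libraries for si-NC and 3 for si-SRSF11, grouped by the deposited labels. The authors deposited raw gene counts with no normalization and no low-count filter. Gene IDs, names and coordinates were those of GENCODE 29 (Ensembl 94; hg38 in the submitters' processing notes). The aligner, the counting program and its strand setting are not given in the sources used here. Reads shared between overlapping genes appear to be left out of the counts, as the shares of genes at 0 show.

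Genes that reached 10 counts in 3 or more libraries were scaled by TMM and fitted by edgeR 4.0.16 (R 4.3.3; glmQLFit, glmQLFTest, condition alone), with Benjamini-Hochberg adjustment over 15801 genes. The SE came from the F statistic. Called means an adjusted p under 0.05. Exact permutation tests were two-sided. Promoters and their motifs came from RefSeq tables. The text names the members, genes next to ADIRF-AS1 in rank or most like it in pattern, called or overlapping genes within 1000 kb, and up to 4 genes of each list with the smallest adjusted p (all tested ones in lists of at most 4), with paralogs. A few genes are not reported here. Members and lists were chosen with earlier results of these data known. Alternatives were DESeq2 1.42.0, other scalings and filters, a replicate block and leaving out each library.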

Additional observations from a re-analysis of the deposited data

How the results depend on the processing

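Of 228 results recomputed under an alternative setting or without a library, 198 kept their direction and their side of the threshold, or their count within 1.5 times. Of these comparisons 15 concern ADIRF-AS1, which was chosen by this contrast, so that its stability is no support. Leaving out each library in turn gave -1.87 to -0.52 for AGAP11 (-1.87 without si-SRSF11 replicate 1), -0.075 to 0.11 for SNCG (-0.075 without si-SRSF11 replicate 3) and 0.17 to 0.23 for BMPR1A. BMPR1A had 0.20 with DESeq2, 0.17 with library-size scaling and 0.20 without a filter, and did not pass in these 3. Genes that passed the adjusted p and had a log2 fold change over 1 in size numbered 173 in the main analysis, 101 with DESeq2, 97 with a mean of at least 20 counts, 96 among protein-coding genes and members, and 583 with a log2 limit of 0.58; without 1 library they numbered 139 to 186. Called genes near ADIRF-AS1 numbered 3 in a window of 500000 bases and 3 to 7 without 1 library. Called AGAP family genes numbered 1 with library-size scaling, among protein-coding genes and members, and with the replicate block (AGAP3 each time), and 0 to 1 without 1 library. Called PBAF genes numbered 4 with DESeq2, 5 with RLE, library-size or upper quartile scaling, without a filter and among protein-coding genes and members, and 4 to 9 without 1 library. The cause of these shifts was not tested. Some of the settings also leave fewer libraries or genes.

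The fit with the replicate number as a block called 4036 genes, against 3885 without it, and left ADIRF-AS1 at -1.90; same-numbered libraries correlated by 0.015 to 0.040 in their deviations from the group means, so the numbers were not taken to pair them. Each library correlated best with its own number, and the study speaks of pairs of samples, but the labels do not say that a number marks a pair. CFL1P1 had an adjusted p by edgeR of 0.0513 with the block. Depth limits AGAP11 and its copies, and ADIRF could not be measured in this table.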
